A study of Sorghum bicolor with 14 samples.

Results

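Sucrose transporters (SUTs) are membrane proteins that move sucrose together with protons. The 6 SUT genes of sorghum, SUT1 to SUT6, were followed here in stems of CSV24SS, a sweet sorghum variety (Sorghum bicolor) grown for the sugar in its stem juice. They were chosen by identifier, and all 6 were found, as 6 of 32752 named rows of the development table and 6 of 32726 of the drought table. The tables give identifiers alone, the SUT names are those of published work, and since SUT numbering differs between publications the identifiers define the genes meant.

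The study holds 14 samples of 1 variety, in 7 groups of 2, all from the middle internode. The drought groups, abbreviated D1, D2 and D3, were potted plants left without water from the flag leaf stage on and harvested at booting at a soil moisture of about 13% in D1, 7% in D2 and 2% in D3. The stage groups grew in a fertilised and watered soil bed. They were sampled at floral initiation (FI), booting (B), the milky stage (MS) and soft dough (SD), successive stages that end in grain filling. No group of watered pots is analysed here, so the lack of water and growth in pots cannot be told apart, and soil moisture and the days without water changed together.

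In a sweet sorghum stem, sucrose arrives in the phloem from the leaves, enters the storage cells of the pith and is kept in their vacuoles. SUTs of the plasma membrane take sucrose up into cells, among them those of the phloem, while SUTs of the vacuolar membrane let stored sucrose out into the cytoplasm. SWEET proteins let sugars pass along their gradient, and tonoplast sugar transporters (TSTs) carry sugar into the vacuole. Sucrose synthases and invertases split the sucrose that has arrived.

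The unit throughout is FPKM, the fragments of a gene scaled by its length and by the number of fragments sequenced, so that levels of different genes in 1 column can be set side by side. For each gene the file gives 1 value by the authors in each group, with no value for the single samples. The variation between replicates therefore cannot be seen, no difference was tested, and higher and lower compare a single value with another. The file gives no read counts, so the depth behind each value is unknown. A difference is one in log2(FPKM + 1), and a gene counts as different at 1 or more on that scale (2-fold). It counts as measured if it reaches 1 FPKM in a column of its table. For drought against B, the columns that count for this are B, D1, D2 and D3. In bulk tissue, fewer cells of a type and less RNA per cell cannot be told apart.

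Of the 6 genes, 3 were measured in both tables, SUT4, SUT1 and SUT2, and the other 3 stayed under 1 FPKM in every column. SUT4 (Sobic.008G193300, chromosome 8, 62665982 to 62671469 in the coordinates of the file, whose build no source used here gives) is placed by published work among the transporters of the vacuolar membrane. In the drought table SUT4 stood at 355 FPKM in D1, 332 in D2 and 299 in D3, lower at each drier reading, as were 2607 of 16801 measured genes (15.5%). The step from D2 to D3 depended on the scaling, with a log2 difference of -0.15 as deposited and 0.01 after quantile normalization. Across the stages its level was 164 FPKM in FI, 139 in B, 80.9 in MS, then 67.6 in SD. It was thus lower at each successive stage, as were 1407 of the 18338 measured genes (7.67%). All 3 drought values lay above all 4 stage values.

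SUT1 (Sobic.001G488700, chromosome 1) is the gene whose counterpart in maize loads sucrose into the phloem of the leaf. In the drought table it stood at 61.2 FPKM in D1, 54.0 in D2 and 63.3 in D3, below all 4 stage values. At the stages its level was 88.5 FPKM in FI, 120.4 in B, 104 in MS, then 145 in SD, highest at the last and lowest at the first. Its drought locus runs from 75789008 to 75923262 (134255 bases) and is shared with the rows of 10 other gene models. The locus of its row in the stage table runs from 75891907 to 75897861 (5955 bases). A level of SUT1 set across the tables therefore compares rows that were not built alike, and the part of this in the difference was not tested.

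SUT2 (Sobic.004G353600, chromosome 4, 68169078 to 68173814) was the least abundant of the measured genes in all 7 columns. In the drought table it stood at 31.3 FPKM in D1, 23.3 in D2 and 22.2 in D3, within the range of the stages. Its stage levels were 21.5 FPKM in FI, 23.1 in B, 32.9 in MS, then 36.9 in SD, higher at each successive stage, as were 1215 of 18338 measured genes (6.63%).

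**Figure D1:**
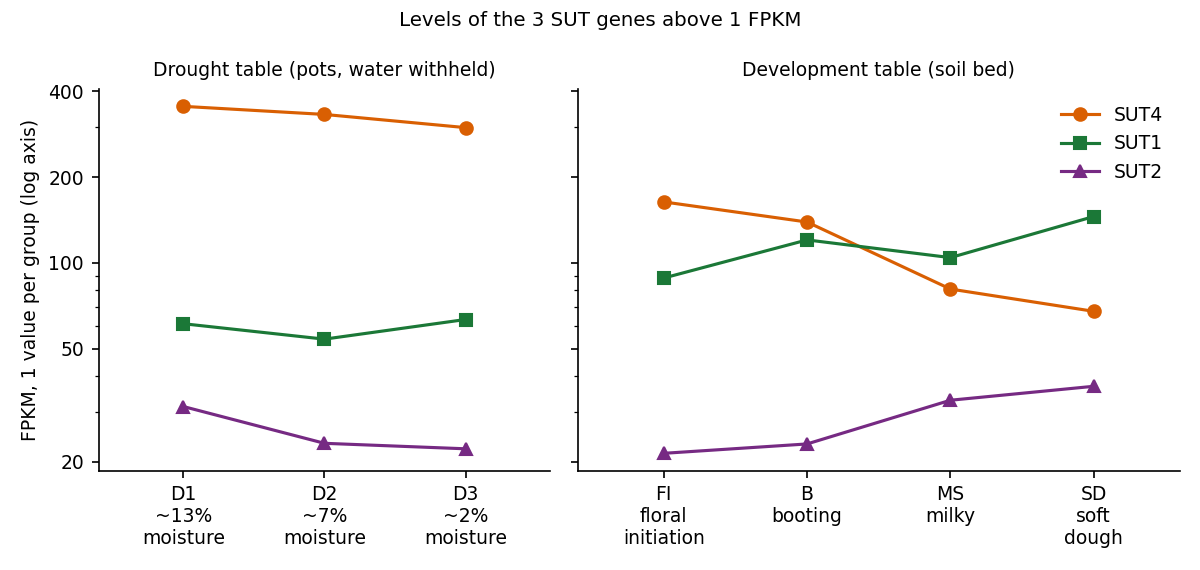
FPKM of SUT4 (circles), SUT1 (squares) and SUT2 (triangles) on a log axis, a single value by the authors in each group and so without error bars. Drought columns are on the left and stages on the right, from tables taken as normalised separately. SUT4 lay at 299 to 355 FPKM in the drought columns and lost its lead over SUT1 between B and MS.

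The other 3 genes were at or near 0. SUT5 (Sobic.004G190500, chromosome 4, 54229191 to 54232507) had the highest value of them, 0.630 FPKM in FI, with 0.00669 in B and 0 listed in the remaining columns. SUT3 (Sobic.001G254000, chromosome 1, 28196912 to 28200621) was listed at 0 in 6 of 7 columns and at 0.0141 FPKM in B. SUT6 (Sobic.007G214500, chromosome 7, 64300016 to 64311376) was listed at 0 except for 0.00556 FPKM in SD. All 3 were listed at 0 in every drought column, as were 24.3% of all named rows of that table. Values under 1 FPKM were common, since 44.0% of named rows in the development table and 48.7% in the drought table did not reach it in any column. The SUT6 row shares its locus with a row of the gene models Sobic.007G214400 and Sobic.007G214600, which reached 27.3 FPKM in SD, and the sources used here do not say how reads were divided between these rows.

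Ranks within a column do not depend on how that column was scaled. SUT4 was number 285 from the top in D1, 425 in D2 and 423 in D3, against number 930 in B. It ranked 751 in FI, 1704 in MS, then 2140 in SD. SUT1 ranked 2250 in D1, 2776 in D2 and 2299 in D3, against 1101 in B, and 1456 in FI, 1308 in MS, then 990 in SD. By rank as by FPKM, SUT4 stood higher in the drought columns than at any stage and SUT1 stood lower. SUT2 ranked between 3650 in SD and 5656 in D3.

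In the drought columns the 6 genes together summed to 447 FPKM in D1, 409 in D2 and 384 in D3, and SUT4 held 79.3% of it in D1, 81.1% in D2 and 77.7% in D3. SUT1 held 13.7% in D1, 13.2% in D2 and 16.5% in D3. At the stages the sum was 274 FPKM in FI, 283 in B, 218 in MS, then 250.0 in SD, a span of 1.30-fold. What differed more between the stages was the share of each gene in that sum. SUT4 held 59.7% in FI, 49.2% in B, 37.1% in MS, then 27.0% in SD. SUT1 held 32.3% in FI, 42.6% in B, 47.8% in MS, then 58.2% in SD, and SUT2 between 7.82% in FI and 15.1% in MS. The leading gene was thus SUT4 in FI and B and SUT1 in MS and SD. These shares rest on SUT1, whose locus differs between the tables. Without it SUT4 held 91.9% in D1, 93.5% in D2 and 93.1% in D3, and at the stages 88.1% in FI, 85.7% in B, 71.1% in MS, then 64.7% in SD.

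**Figure D2:**
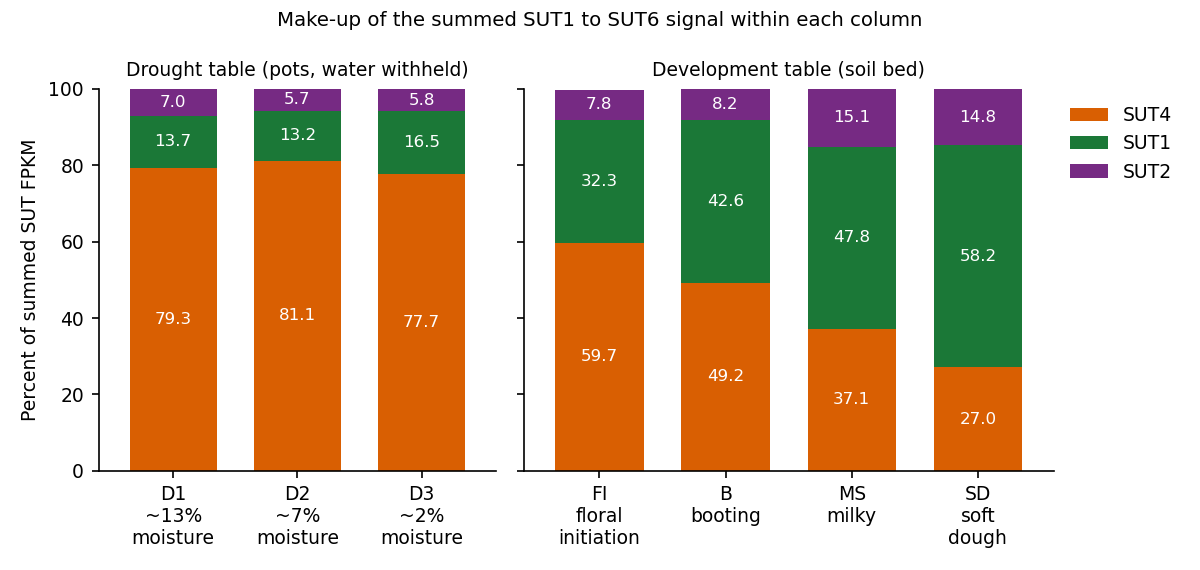
Share of the summed FPKM of SUT1 to SUT6 held by SUT4, SUT1 and SUT2 in each column, in percent, with drought columns on the left and stages on the right. SUT3, SUT5 and SUT6 hold too little to be seen, and SUT4 holds 77.7% to 81.1% in the drought columns and 27.0% to 59.7% at the stages (91.9% to 93.5% and 64.7% to 88.1% without SUT1).

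Ratios between genes of 1 column are also free of the scaling of that column. The level of SUT4 was 5.80 times that of SUT1 in D1, 6.15 times in D2 and 4.72 times in D3. The same ratio was 1.85 in FI, 1.16 in B, 0.776 in MS, then 0.465 in SD, so SUT1 was the more abundant from MS on. Relative to SUT2, whose locus is the same in both tables, SUT4 was 11.3 times as abundant in D1, 14.3 times in D2 and 13.4 times in D3. The ratio to SUT2 was 7.63 in FI, 6.01 in B, 2.46 in MS, then 1.83 in SD. Both ratios were about 4-fold lower in SD than in FI, with quotients of 0.251 for SUT1 and 0.240 for SUT2. The ratio of SUT1 to SUT2 was 1.95 in D1, 2.32 in D2 and 2.84 in D3. At the stages it was 4.13 in FI, 5.20 in B, 3.17 in MS, then 3.94 in SD, a 1.64-fold span with no steady course.

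**Figure D3:**
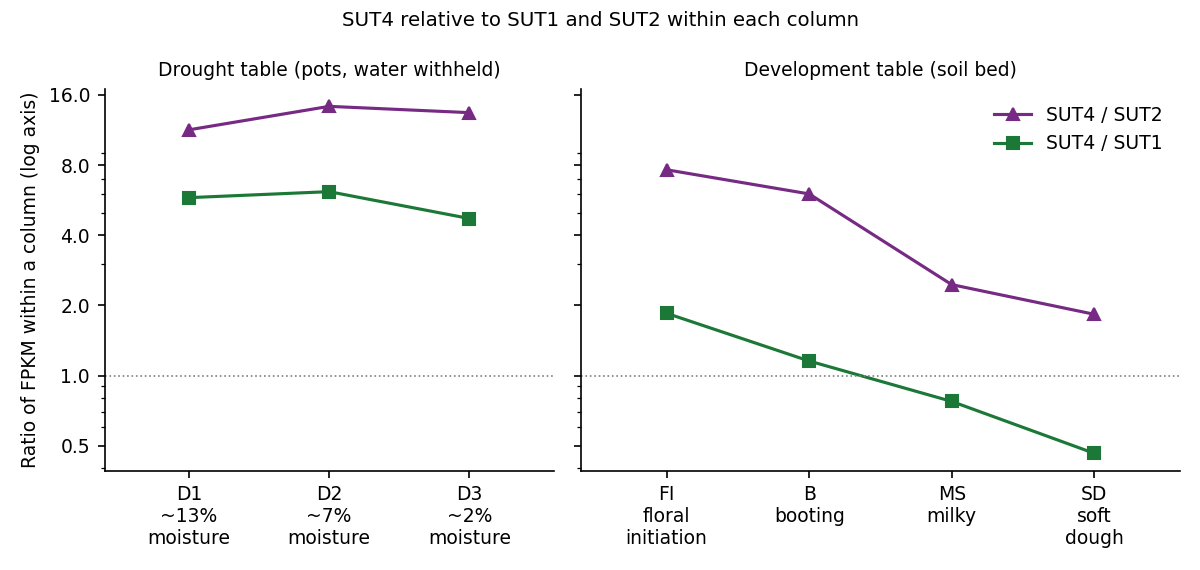
FPKM of SUT4 divided by that of SUT2 (triangles) and of SUT1 (squares) in the same column, on a log axis, with drought columns on the left, stages on the right and a dotted line at a ratio of 1. Both ratios are lower at each successive stage, SUT4 to SUT1 passes below 1 at MS, and both are highest in the drought columns.

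Between consecutive stages, none of the measured SUT genes differed 2-fold. In B against FI, 0 of 3 were at least 2-fold higher and 0 lower, where 9.25% of all measured genes were higher and 17.5% lower. SUT1 was 1.36-fold higher in B, with a log2 difference of 0.44. In MS against B the counts were again 0 and 0, with 7.63% of all genes higher and 6.57% lower. The SUT4 difference at this step was -0.77, at 80.9 FPKM in MS against 139 in B, and 9.72% of measured genes had a lower value. SUT2 differed by 0.49 in the other direction, at 32.9 FPKM in MS against 23.1 in B. In SD against MS the counts were 0 and 0, with 6.47% of all genes higher and 4.27% lower, and SUT1 was 1.39-fold higher in SD.

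Over longer spans SUT4 was the 1 of 3 measured genes past the threshold. It was 2.42-fold lower in SD than in FI, a log2 difference of -1.26. Of all measured genes 16.2% were at least 2-fold lower in this comparison and 11.1% higher, so such a difference was not rare. SUT1 differed by 0.71, at 145 FPKM in SD against 88.5 in FI, and SUT2 by 0.75, at 36.9 FPKM against 21.5. SUT4 was also 2.02-fold lower in MS than in FI (-1.01), where 16.6% of all genes were lower and 9.07% higher. It was 2.06-fold lower in SD than in B (-1.03), where 9.65% were lower and 12.2% higher. Both values lie at the threshold. With a pseudocount of 5 they were -0.97 and -0.99, and after median ratio rescaling MS against FI was -0.95. SUT1 and SUT2 were higher at the later stage in both comparisons, by 0.24 to 0.65 on the log2 scale.

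The spread over the 4 stages was moderate next to other genes. The log2 range of SUT4 was 1.26, wider than that of 64.8% of measured genes. SUT1 and SUT2 had ranges of 0.71 and 0.75, while the median range of all measured genes was 0.98.

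Among the 3 soil moisture readings, the measured SUT genes all lay within 2-fold. In D2 against D1, 0 of 3 were higher and 0 lower, beside 4.57% and 6.25% of all measured genes. In D3 against D2 the counts were 0 and 0 beside 3.92% and 0.905%, and in D3 against D1 0 and 0 beside 5.12% and 3.49%. SUT2 had the widest range of the SUT genes, 0.47 on the log2 scale, at 22.2 FPKM in D3 against 31.3 in D1, and 14.3% of measured genes had a lower difference in that pair. SUT4 was 1.19-fold lower in D3 than in D1 and SUT1 1.03-fold higher. The ranges of SUT4 (0.25) and SUT1 (0.23) were smaller than the median of all genes, 0.45.

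Per the labels the drought plants were harvested at the same stage as the booting plants of the soil bed, B, which served as the common column of 3 comparisons. Pot against soil bed, watering and the table that holds the values all differ between these groups and cannot be told apart, and the 2 tables were taken as normalised separately. SUT4 was at least 2-fold higher in each, by 2.55-fold in D1 (355 FPKM against 139 in B), 2.39-fold in D2 and 2.15-fold in D3, or 1.34, 1.25 and 1.10 on the log2 scale. At least 2-fold higher were 13.3% of all matched genes in D1, 13.5% in D2 and 14.7% in D3. The median difference of all matched genes was 0.06, 0.07 and 0.08. After joint median ratio rescaling of all 7 columns the D3 difference of SUT4 was 0.999.

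SUT1 lay near the threshold in the other direction. It was 2.23-fold lower in D2 than in B, at 54.0 FPKM against 120.4, a log2 difference of -1.14. In D1 and D3 its differences were -0.97 and -0.92, within 2-fold, and they became -1.05 and -1.01 after joint median ratio rescaling. At least 2-fold lower than in B were 9.56% of all matched genes in D1, 11.5% in D2 and 10% in D3. Among the other 10 gene models on the wide drought locus of SUT1, 7 were measured, of which 2 were at least 2-fold lower in D1, 4 in D2 and 3 in D3, and 1 was higher in each. Their median log2 difference was -0.72 in D1, -1.14 in D2 and -0.90 in D3. Sobic.001G488900, at 1.72 FPKM in B, was measured through B alone and so could not have come out higher. It is among the lower ones in each column and enters the medians. SUT1 and the median of its neighbours thus both lay below B, and the part of the shared locus in this was not tested.

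SUT2 lay within 2-fold of B in all 3 drought columns, with differences of 0.42 in D1, 0.01 in D2 and -0.05 in D3. By the ratio within a column, SUT4 to SUT2 was 1.88 times that of B in D1, 2.37 times in D2 and 2.23 times in D3.

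**Figure D4:**
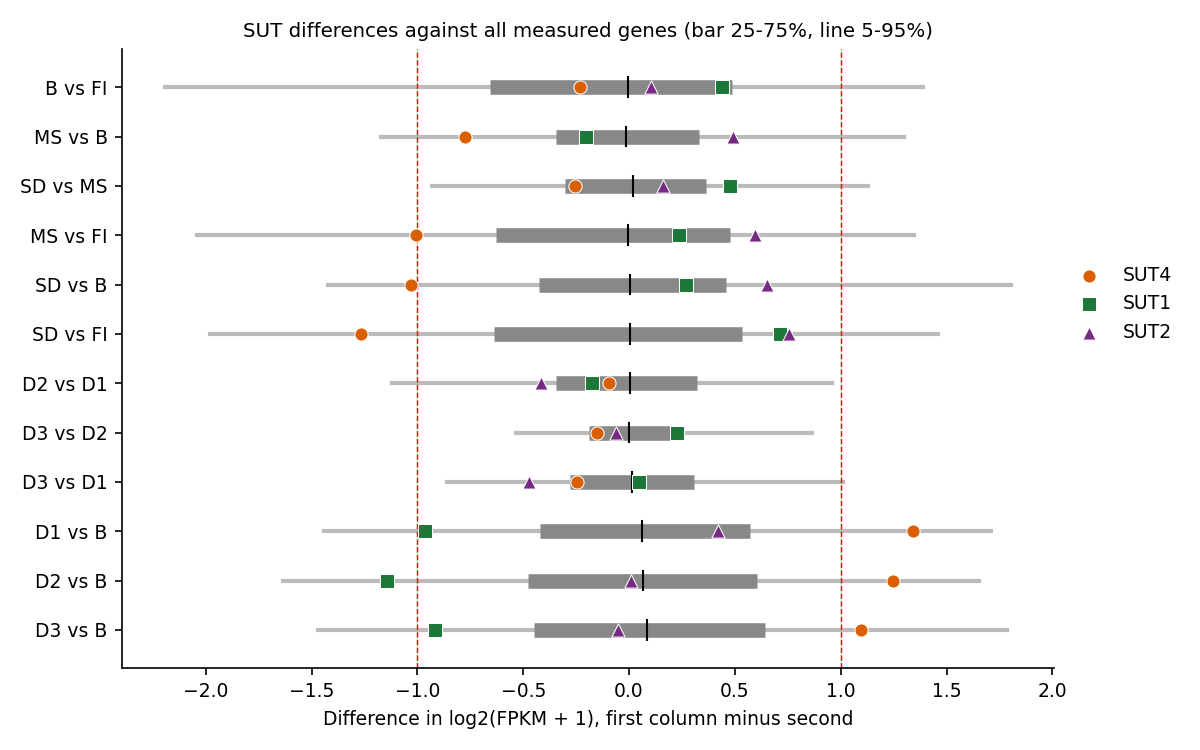
Differences in log2(FPKM + 1) of SUT4 (circles), SUT1 (squares) and SUT2 (triangles) for 12 pairs of columns, named first minus second. Grey bars span the central 25 to 75% and grey lines 5 to 95% of all measured genes, black ticks mark their median and dashed lines 2-fold. SUT4 passes 2-fold lower in MS and SD against FI and in SD against B, and 2-fold higher in all 3 drought columns against B.

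Markers of tissue and treatment were read from identifiers known from published work, since the tables carry no descriptions. The dry-stalk NAC gene Sobic.006G147400, a pith gene of the stem, was at 66.2 to 119 FPKM in the drought columns. At the stages it was at 8.53 FPKM in FI, 158 in B, 53.9 in MS, then 113 in SD, so FI stood far below the rest. Of 4 leaf photosynthesis genes, 3 reached 1 FPKM in every column. The leaf form of phosphoenolpyruvate carboxylase, Sobic.010G160700, stayed between 0.0530 and 0.282 FPKM in all 7. The summed level of the 4 was 390.4 FPKM in D1, 180.0 in D2 and 244 in D3, against 238 in B, and 147 to 317 over all stages. With all 4 genes it was thus higher than B in D1, lower in D2 and close to it in D3. The row of NADP-malic enzyme holds a second gene model, and its level was below B in every drought column. Without it the sum was 348 FPKM in D1, 138 in D2 and 206 in D3, against 98.5 in B. At the stages that smaller sum ran from 17.7 to 98.5 FPKM, so every drought column lay above every stage. In the drought columns most of it came from the small subunit of Rubisco, so this mostly reflects that gene. The single genes differed in direction. The small subunit of Rubisco (Sobic.005G042000) was at 284 FPKM in D1, 125 in D2 and 180.1 in D3, against 66.3 in B. NADP-malic enzyme (Sobic.003G036200) was at 42.5, 42.1 and 37.6 FPKM in D1, D2 and D3, against 139 in B. The third, pyruvate phosphate dikinase (Sobic.009G132900), was at 63.6, 12.7 and 25.9 FPKM in D1, D2 and D3, against 32.2 in B. The part of these genes in the SUT4 values was not tested. The dehydrin gene Sobic.009G116700, of a family made under water deficit, was at 123, 52.4 and 24.7 FPKM in D1, D2 and D3, against 0.0699 in B. At the other stages it was at 7.54 FPKM in FI, 24.2 in MS and 24.0 in SD, so D3 was close to the watered MS and SD.

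The other sucrose genes listed for the stem were 8, all measured at the stages and 7 of them in the drought table. None of the 8 had the course of SUT4, lower at every stage and above every stage in all 3 drought columns. That course was read from SUT4 itself, and the share of all genes with it was not computed. Being lower at each successive stage alone held for 7.67% of measured genes, so its absence among 8 does not set SUT4 apart. In SD against FI, 1 of 8 passed 2-fold upwards and 2 downwards, where 11.1% of all measured genes were higher and 16.2% lower. The list median was -0.27, beside 0.00 over all measured genes. The higher one was the SWEET gene Sobic.008G094000, and the lower ones were the sucrose synthases Sobic.010G072300, at 441 FPKM in SD against 1242 in FI, and Sobic.001G344500. Each drought column held 1 gene of the 8 at least 2-fold higher than B, the sucrose synthase Sobic.001G378300, at 60.9 FPKM in D1, 109 in D2 and 87.0 in D3 against 20.7 in B. Lower than B were 2 of 8 in D1, 2 in D2 and 1 in D3. Vacuolar invertase was among them in each column. It was under 1 FPKM in every drought column and was included through its level in B, so it could only come out lower. With 13.3% to 14.7% of all matched genes higher and 9.56% to 11.5% lower, counts this small do not set the list apart.

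The vacuolar importers TST1 (Sobic.001G312900) and TST2 (Sobic.004G099300) move sugar in the direction opposite to a vacuolar SUT. TST1 was at 177 FPKM in FI, 269 in B, 261 in MS, then 138 in SD, highest in the 2 middle stages, where SUT4 lay between its extremes. TST2 was at 111 FPKM in D1, 175 in D2 and 188 in D3, against 237 in B. These levels lay below B, those of SUT4 above it, but TST2 passed 2-fold in D1 alone. They also lay within the stage range of TST2, 91.0 FPKM in SD to 237 in B. TST1 was within 2-fold of B in each drought column, with log2 differences of -0.50 in D1, -0.13 in D2 and -0.61 in D3. Vacuolar invertase (Sobic.004G004800), which splits sucrose inside the vacuole, was at 0.603 FPKM in D1, 0.0343 in D2 and 0.689 in D3, against 9.61 in B.

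**Figure D5:**
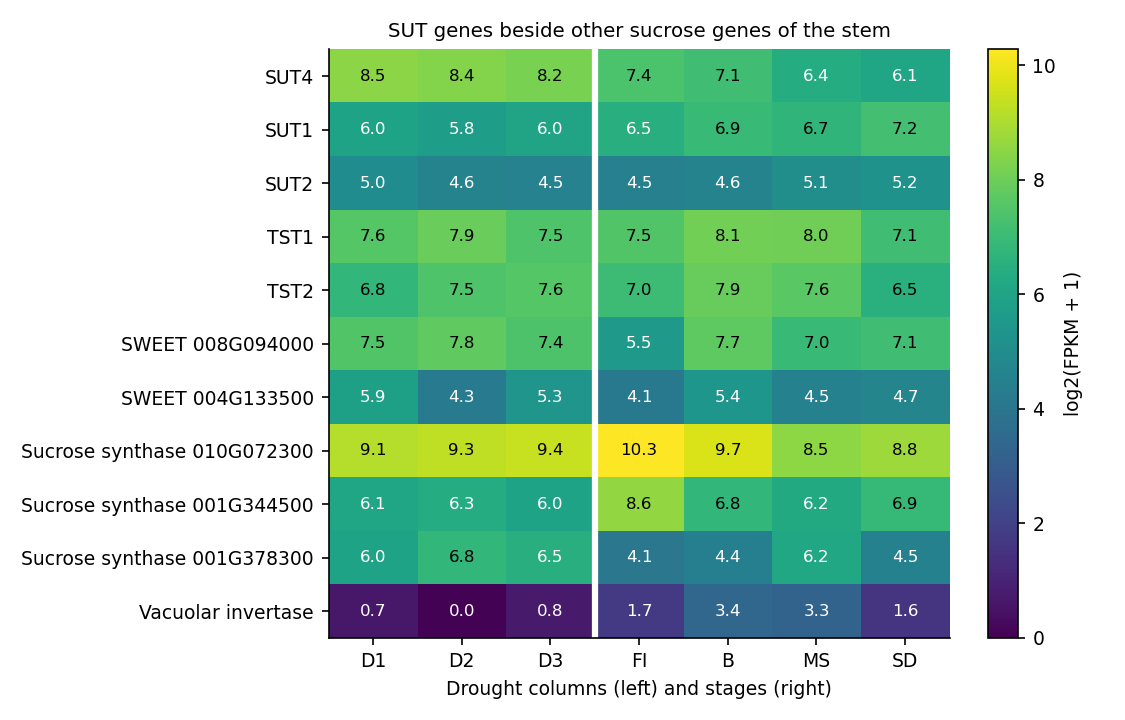
log2(FPKM + 1) of the 3 measured SUT genes and 8 other sucrose genes, with drought columns left of the white line and stages right of it, yellow for high and dark blue for low values. SUT4 reaches its highest values in the drought columns, while vacuolar invertase is lowest there.

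Genes with the most similar course were sought by Pearson's r over the 7 columns, on log2(FPKM + 1) centred within each table, among 11357 genes that reached 5 FPKM in both tables. With so few columns high values arise often, and 104 genes reached 0.95 with SUT4, 46 with SUT1 and 51 with SUT2. The most alike to SUT4 were Sobic.002G186400 (r of 0.991), at 3.37 FPKM in SD against 9.35 in FI, and the row of Sobic.006G188000 and Sobic.006G188100 (0.990). For SUT1 they were Sobic.001G071400 (0.994) and Sobic.004G252000 (0.990), and for SUT2 Sobic.004G207900 (0.986) and Sobic.002G337700 (0.984). Centring removes the level difference between the tables, so these genes need not share it. Sobic.002G186400 had 11.8 FPKM in D1, 10.7 in D2 and 9.39 in D3, against 8.39 in B. It thus lay above B, by less than SUT4 did. Its coordinates differ between the tables, so these rows were not built alike, and the part of this in the difference was not tested. The row second most alike to SUT4 has the same coordinates in both tables and lay below B. It had 37.3 FPKM in D1, 30.9 in D2 and 28.7 in D3, against 68.3 in B.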

How the data were processed

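Libraries were stranded and made from total RNA of the middle internode, per the labels. The authors deposited FPKM values, 1 per gene and group, as a stage table beside a soil moisture table. The sources used here do not say how the 2 samples of a group were joined into 1 value. Tools named in the submitters' processing notes, with no step assigned to them, are HISAT2 2.0.5, Bowtie2 2.2.9, Cuffdiff and cutadapt 1.8.1. Locus identifiers differ between the tables, so each was treated as scaled on its own.

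From these values levels, ranks among named rows, shares, ratios within a column and differences in log2(FPKM + 1) were computed, with a gene measured at 1 FPKM or more in a column (18338 genes at the stages, 16801 in drought, 16817 matched by name for drought against B). For drought against B, that column had to be B, D1, D2 or D3. The fallback for 1 value per group was used, with no test. All 6 SUT genes were to be named, and for each measured one the 2 most alike genes. The members and lists were chosen with earlier results of these data known. The planned search of proteins and promoters was not made, since no sequences were used here. There were 0 value columns not used. Code was checked on simulated data. Tools were numpy 2.4.6, pandas 2.3.3 and matplotlib 3.10.9 under Python 3.11.15.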

Additional observations from a re-analysis of the deposited data

How the results depend on the processing

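Pseudocounts of 0.1 and 5, median ratio rescaling, quantile normalization, no filter and a mean of at least 5 FPKM were tried, and, for drought against B, joint scalings of all 7 columns and genes with the same coordinates in both tables, these last chosen after seeing the data. Of 150 recomputed counts of members past 2-fold, 143 held and 7 moved. The 143 include counts with no filter and with a mean of at least 5 FPKM, which these settings could not change. The unmeasured SUT genes stayed under 1 FPKM, too low to differ 2-fold on this scale, and the measured ones were all above 5 FPKM throughout. Of 150 log2 differences, 144 kept their side of 2-fold, 4 fell short of it and 2 newly passed it. The count lower was 0 in MS against FI with a pseudocount of 5 and after median ratio rescaling, and 0 in SD against B with a pseudocount of 5, each against 1 as reported. After joint median ratio rescaling the count higher in D3 against B was 0, and the count lower was 1 in D1 and 1 in D3 against B. With genes of the same coordinates, which leave out SUT1, the count lower in D2 against B was 0. Without SUT1 the share of SUT4 was 91.9% in D1, 93.5% in D2 and 93.1% in D3, and 88.1% in FI, 85.7% in B, 71.1% in MS, then 64.7% in SD. Leaving out members on a shared locus gave the same 3 drought values. Quantile normalization moved the median of all genes to 0.11 in B and in MS against FI, where it was 0.00, and joint median ratio rescaling left that of D3 against B at 0.00, where it was 0.08. The gene most alike was another one for each of the 3 SUT genes with Spearman's rho and with candidates reaching 20 FPKM. No paired analysis was possible because the file gives 1 value per group, and for the same reason no replicate could be left out. Without read counts, the limit that depth sets is unknown.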
